A study of Mus musculus with 40 samples.

Results

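Ddias, Abhd4 and Dcaf4 are 3 less familiar genes that gave higher ratios in mouse embryos treated with an activated form of cyclophosphamide. They were chosen by their treated over control ratios in these same arrays, from 6970 genes that were named by a probe with 1 gene symbol. Their ratios are therefore a description and were not tested here. The genes were read by 4 probes: array design 2 carried 1 probe for each gene, and array design 1 carried a further probe for Abhd4. All 4 probes had a value on every array of their design.

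Whole mouse embryos were cultured at 37 °C with 40 µM 4-hydroperoxycyclophosphamide, present throughout the 5 h of culture, or left untreated as controls. The labels name neither strain nor embryonic age, nor how many embryos went into an RNA sample. All 40 samples were 2-colour cDNA arrays that set treated against control embryos, with 5 replicates on each of 2 array designs. Every replicate had 1 slide with treated RNA in channel 1 and 1 with treated RNA in channel 2, and each slide was read out as a plain and as a B readout, so a design had 10 slides and 20 arrays. Nothing in the labels ties a replicate number to separate embryos, so SDs and p-values cover the spread between these arrays, and that spread may be technical.

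4-hydroperoxycyclophosphamide releases a mustard that alkylates and crosslinks DNA. Such damage stabilises the tumour suppressor p53, which is otherwise degraded through the ubiquitin ligase Mdm2, and p53 then switches on genes of cell cycle arrest, DNA repair and cell death, together with inhibitors of its own activity. Ddias, also known as noxin, encodes a damage-induced suppressor of apoptosis. Abhd4 encodes an α/β-hydrolase that cleaves N-acyl phospholipids on the way to N-acylethanolamines, lipid signals of the endocannabinoid type. Dcaf4 encodes a WD-repeat protein that binds DDB1 and belongs to the substrate receptors of CUL4-DDB1 ubiquitin ligases.

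The proximal promoters are shown because the 3 genes gave high ratios together and because their letters played no part in how the genes were chosen. Each run holds the 250 bases before an annotated transcript start, 5′ to 3′ on the strand of the gene (RefSeq, GRCm38.p6). Capitals mark the CCAAT box (CCAAT) and the GC box (GGGCGG), read on both strands. The windows lie at chr7:92874248-92874497 on the minus strand for Ddias, at chr14:54253879-54254128 on the plus strand for Abhd4 and at chr12:83520216-83520465 on the plus strand for Dcaf4.
Ddias: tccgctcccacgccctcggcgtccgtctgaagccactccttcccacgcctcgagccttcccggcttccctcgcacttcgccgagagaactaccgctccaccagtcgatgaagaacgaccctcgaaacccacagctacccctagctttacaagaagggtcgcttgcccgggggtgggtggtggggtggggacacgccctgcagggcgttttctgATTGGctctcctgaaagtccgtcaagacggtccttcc
Abhd4: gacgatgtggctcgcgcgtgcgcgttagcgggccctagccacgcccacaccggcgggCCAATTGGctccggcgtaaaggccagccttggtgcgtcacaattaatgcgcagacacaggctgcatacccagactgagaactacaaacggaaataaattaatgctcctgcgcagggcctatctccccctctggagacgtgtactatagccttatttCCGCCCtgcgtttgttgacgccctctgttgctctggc
Dcaf4: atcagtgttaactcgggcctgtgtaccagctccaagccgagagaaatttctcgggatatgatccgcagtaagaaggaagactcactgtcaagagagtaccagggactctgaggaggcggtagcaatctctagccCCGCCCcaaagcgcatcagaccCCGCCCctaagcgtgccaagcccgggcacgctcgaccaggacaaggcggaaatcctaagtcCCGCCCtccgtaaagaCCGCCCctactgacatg

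No 2 of these windows had the same set of motifs. The Ddias window held 1 CCAAT box, beginning 37 bases before the start, and no GC box. The Abhd4 window differed in that 2 CCAAT boxes overlapped on opposite strands, beginning 193 and 190 bases before the start, and 1 GC box began at 37 bases. The Dcaf4 window held 4 GC boxes and no CCAAT box. At a second annotated start, the Abhd4 window held 1 GC box and no CCAAT box, and the Dcaf4 window held neither. Of all 32851 promoter windows of this length, 33.8% held a CCAAT box and 32.7% a GC box. The consensus p53 half-site, searched without mismatches, matched in none of the 3 windows shown. Nor did it match in the window of the second annotated start of Abhd4 or of Dcaf4. Of all windows, 7.13% held a match. The cell cycle homology region (TTTGAA) matched in none of the 5 windows and in 16% of all. A window without a match says only that these letters are not in it.

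Ratios are given below as log2 of treated over control, with every array first centred on its own median. Neither the base of the deposited logarithms nor which channel is the numerator is stated in the labels or headers, and base 2 and channel 1 over channel 2 were assumed. With the other numerator every sign would turn. Array medians ran from −1.53 to 0.83 on array design 1 and from −1.73 to 1.69 on array design 2 before centring. In replicate 4 of array design 1, 1 readout lacked 786 of 7680 values (10.2%). Without centring the median of all probes lay at −0.24 on array design 1 and at −0.41 on array design 2, and values of the genes below are relative to it.

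Ddias had the highest mean of the 3 genes. In replicates 1 to 5 its log2 ratios were 0.88, 0.15, 0.76, 0.71 and 0.92. Replicates 1, 3, 4 and 5 lay close together and replicate 2 lay far below them. The mean was 0.68 ± 0.31 (SD, n = 5), or 1.61-fold higher with treatment, and 0.82 ± 0.10 (SD, n = 4) without replicate 2. It ranked 9 among 7599 probes of array design 2, where the next singly named probe above it was Ckap2 at 0.74 ± 0.11, a spindle gene, and the next below was Phtf1 at 0.67 ± 0.19 (SD, n = 5).

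Abhd4 on array design 2 gave log2 ratios of 0.62, 0.27, 0.67, 0.63 and 0.69 in replicates 1 to 5. Replicate 2 was again the low value. The mean was 0.58 ± 0.17 (SD, n = 5), a 1.49-fold difference, and without replicate 2 it was 0.65 ± 0.03 (SD, n = 4). Its rank was 48, between Clic1, a chloride channel protein, at 0.58 ± 0.13 and 3 probes of H19, an imprinted non-coding RNA, at 0.57 each.

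Dcaf4 had log2 ratios of 0.53, 0.25, 0.75, 0.77 and 0.39 in the 5 replicates. Replicate 2 was the lowest here too, but the values spread more evenly than those of the other genes. The mean was 0.54 ± 0.22 (SD, n = 5), or 1.45-fold, and 0.61 ± 0.18 (SD, n = 4) without replicate 2. Dcaf4 ranked 59, between Serpinh1, a collagen chaperone, at 0.54 ± 0.32 and Dynll1, a dynein light chain, at 0.54 ± 0.14.

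The second probe of Abhd4, on array design 1, did not give the ratio of the first. Its log2 ratios were −0.25, 0.13, 0.12, −0.20 and −0.34 in replicates 1 to 5, on both sides of 0. The mean was −0.11 ± 0.22 (SD, n = 5), a ratio of 0.928, at rank 5937 of 7680 probes. The replicate values of the 2 probes did not overlap, and their means lay 0.69 apart on the log2 scale. The ratio on array design 2 is among the values that chose Abhd4, so this gap is a description. How far probes of other genes differ between the designs is not given here. The 2 Abhd4 probes were hybridised on different slides, so probe and slide cannot be told apart. Which transcripts each probe detects was not analysed here, and every statement on a higher ratio of Abhd4 rests on the probe of array design 2.

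**Figure D1:**
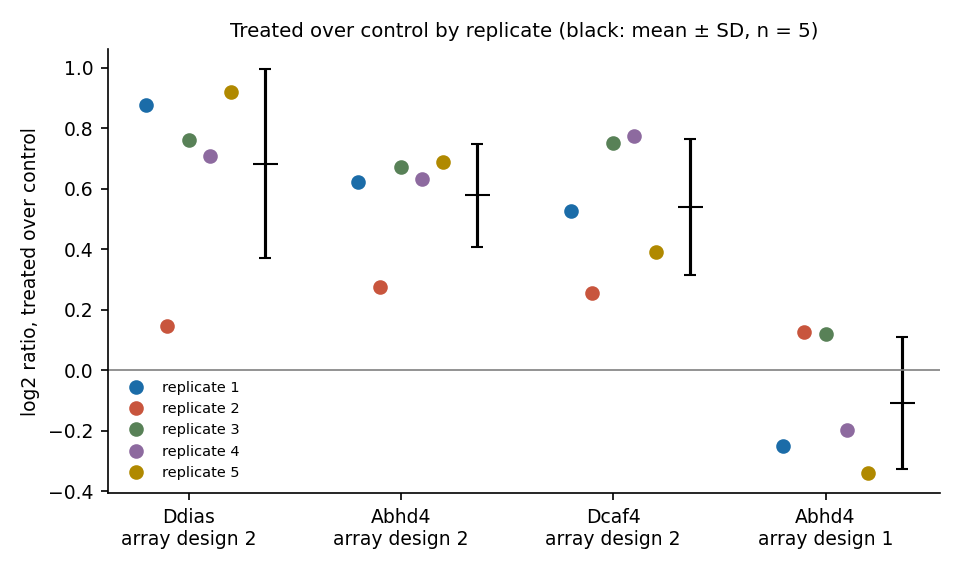
Log2 ratio of treated over control embryos (vertical axis) for the 4 probes of Ddias, Abhd4 and Dcaf4, with 1 point per replicate and the mean ± SD (n = 5) in black. On array design 2 every replicate lies above 0 and replicate 2 is the lowest for each gene (0.15, 0.27 and 0.25), while the Abhd4 probe of array design 1 scatters around 0 with a mean of −0.11.

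The order Ddias, Abhd4, Dcaf4 on array design 2 was not separated beyond the spread between replicates. Ddias exceeded Abhd4 in 4 of 5 replicates, and the difference of Abhd4 minus Ddias was −0.11 ± 0.15 (SD, n = 5). Abhd4 exceeded Dcaf4 in 3 of 5 replicates, by 0.04 ± 0.17 on average. Ddias exceeded Dcaf4 in 3 of 5 as well, by 0.14 ± 0.28. Each mean difference is smaller than its SD. Probes differ in how far they compress a ratio, so these are differences between ratios of probes and not between levels of the transcripts.

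On array design 2, 19.8% of 7599 probes were called higher and 8.07% lower in treated embryos (limma adjusted p under 0.05). That is 1501 higher and 613 lower, against 21 and 6634 without centring and 1151 and 180 with arrays scaled to 1 spread. The shares were 0.638% and 0.013% of 7680 probes on array design 1, and 19 probes were called higher and 4596 lower there without centring. The 3 probes of array design 2 belong to the contrast that chose the genes, so nothing is read from their place among the calls. In the plot of all probe means they stand in the upper tail of array design 2, with 0.105%, 0.619% and 0.763% of probes above Ddias, Abhd4 and Dcaf4. With the other numerator they would stand in the lower tail, with the same shares of probes below them. The Abhd4 probe of array design 1 had 77.3% of probes above it.

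**Figure D2:**
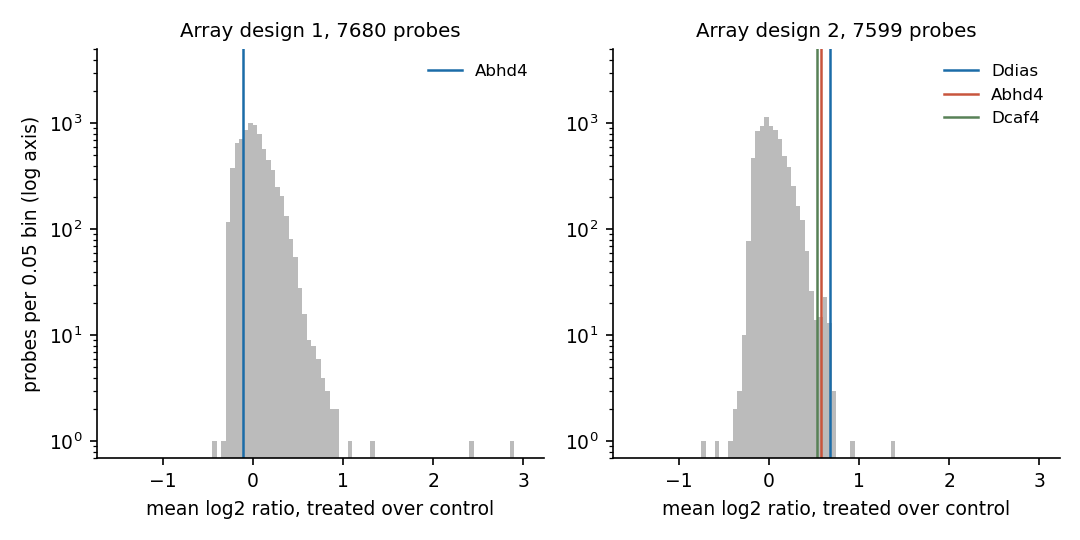
Number of probes (log axis) by mean log2 ratio of treated over control embryos in bins of 0.05, for each array design, with coloured lines at the means of the genes. Ddias (0.68), Abhd4 (0.58) and Dcaf4 (0.54) lie in the upper tail of array design 2, and the Abhd4 probe of array design 1 (−0.11) lies within the main body.

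Single arrays show how the ratios were built up. The treated side was the brighter relative to the array's median on 20 of 20 arrays for Abhd4 of array design 2, on 19 of 20 for Ddias and on 17 of 20 for Dcaf4. The exceptions were the B readout of Ddias and both readouts of Dcaf4 on the replicate 2 slide with treated RNA in channel 2, and 1 B readout of Dcaf4 in replicate 5. For the Abhd4 probe of array design 1 the treated side was brighter on 9 of 20 arrays.

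The orientations gave unequal ratios for Ddias and Abhd4. With treated RNA in channel 1, Ddias had a log2 ratio of 0.36 ± 0.08 (SD, n = 5), and with treated RNA in channel 2 it had 1.01 ± 0.60. In channel 1 all replicates of Ddias lay between 0.26 and 0.48. In channel 2 replicates 1, 3, 4 and 5 lay between 1.11 and 1.36 and replicate 2 lay at −0.06. Abhd4 of array design 2 had 0.31 ± 0.17 and 0.84 ± 0.32 in the same order, with 0.34 for replicate 2 in channel 2. Dcaf4 gave nearly equal means, 0.57 ± 0.27 and 0.51 ± 0.49. Its replicate 2 was the highest of the 5 with treated RNA in channel 1, at 0.84, and the lowest in channel 2, at −0.33.

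**Figure D3:**
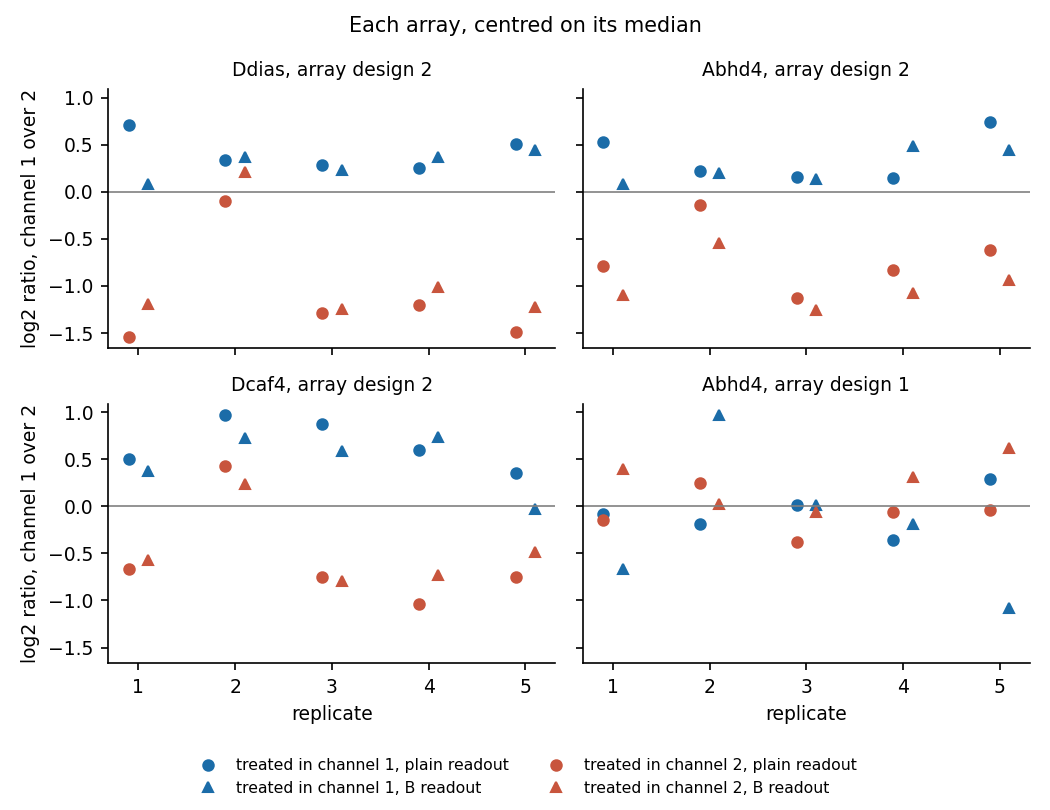
Centred log2 ratio of channel 1 over channel 2 (vertical axis) on every array, by replicate (horizontal axis), with colour for the channel of the treated RNA and shape for the readout. For Ddias, Abhd4 and Dcaf4 on array design 2 the orientations point to opposite sides of 0 in replicates 1, 3 and 4, whereas in replicate 2 the arrays of Ddias and Dcaf4 with treated RNA in channel 2 lie near or above 0. For the Abhd4 probe of array design 1 the treated side is the brighter on 9 of 20 arrays.

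The readouts of a slide differed by a mean of 0.21 on the log2 scale for Ddias, 0.21 for Dcaf4 and 0.25 for Abhd4 on array design 2, beside a median of 0.23 over all probes of that design. These probes were thus read about as repeatably as the median probe. The Abhd4 probe of array design 1 differed by 0.54 between readouts, beside a median of 0.32 there, and 91.6% of probes had a smaller difference. Its largest difference on 1 slide was 1.37.

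The dye part, the mean of both orientations without turning, is the share of a ratio that follows the channel and not the treatment. It was not used to choose the genes and was tested against 0. For Ddias it was −0.33 ± 0.30 (SD, n = 5, limma adjusted p = 0.217), for Abhd4 of array design 2 −0.26 ± 0.19 (limma adjusted p = 0.237) and for Dcaf4 0.03 ± 0.32 (limma adjusted p = 0.939). None of the 3 passed, nor did any of the 7599 probes of array design 2 (0%), although 1431 had an unadjusted p under 0.05, and limma with a robust prior called none as well. Ddias and Abhd4 of array design 2 were among the 1431 (unadjusted limma p = 0.0321 and 0.0392). On array design 1 the dye part of Abhd4 was −0.02 ± 0.16 (limma adjusted p = 0.894), where 16.2% of probes passed. Without replicate 2, 13.5% of probes passed on array design 2, and Ddias was among them with a dye part of −0.46 (limma adjusted p = 0.0144, n = 4). Abhd4 (limma adjusted p = 0.0735) and Dcaf4 (limma adjusted p = 0.399) did not pass there.

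Replicate 2 moved in both parts at once. Its dye part was 0.20 for Ddias, −0.07 for Abhd4 and 0.59 for Dcaf4, the highest of the 5 replicates for each gene, while its treatment part was the lowest for each gene. By construction, a departure of 1 slide enters the treatment part and the dye part with equal size. Over all probes of array design 2, 634 had 1 replicate far apart in the dye part, and in 65.5% of these it was replicate 2. Low treatment parts in replicate 2 were less general: of the 41 other probes at least 1.5-fold higher on that design, 2 had their lowest value in replicate 2 and 27 in replicate 1. Of 1498 other probes called higher, 323 had their lowest value in replicate 2. Of the 9 probes of p53 targets called higher, 2 did. The part of the replicate 2 slides in the ratios of the 3 genes was not tested.

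**Figure D4:**
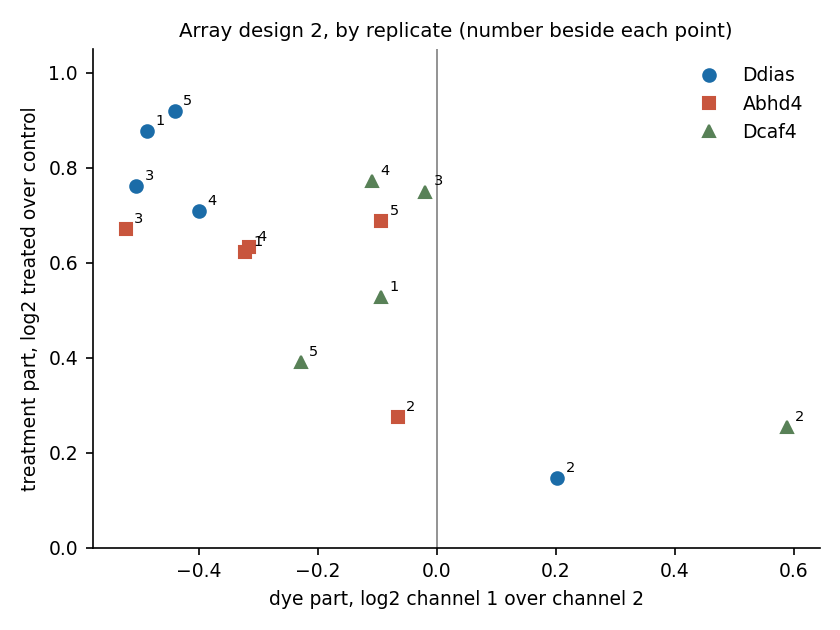
Treatment part (vertical axis, log2 treated over control) against dye part (horizontal axis, log2 channel 1 over channel 2) of Ddias, Abhd4 and Dcaf4 on array design 2, with 1 point per replicate and its number beside it. Replicate 2 has the lowest treatment part and the highest dye part of each gene.

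The slides carry numbers of a 2000 and a 3000 series, and the difference between the series was tested with a term for the series. Ddias had a mean log2 ratio of 0.60 in the 2000 series (3 replicates) and 0.81 in the 3000 series (2 replicates), a difference of 0.22 ± 0.15 (SE, limma adjusted p = 0.646). Without replicate 2, which belongs to the 2000 series, it was −0.01 (limma adjusted p = 0.996). The differences of Abhd4 and Dcaf4 on that design were 0.14 ± 0.12 and 0.07 ± 0.13 (SE, limma adjusted p = 0.734 and 0.903). For the Abhd4 probe of array design 1 it was −0.08 ± 0.18 (SE, limma adjusted p = 0.999). No probe passed on array design 1 or array design 2 (0% of each), with 142 and 719 probes at an unadjusted p under 0.05, and limma with a robust prior called 0 and 21 probes. Within each series the mean ratios of all 3 genes on array design 2 were above 0, the lowest being 0.51 for Dcaf4 in the 2000 series. These means are parts of the values that chose the genes, so their sign is a description and no support.

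The slide patterns of the 3 genes resembled each other. Over the 10 slides of array design 2, the ratio of channel 1 over channel 2 of Abhd4 and Ddias had Pearson's r = 0.954, Ddias and Dcaf4 0.928, and Abhd4 and Dcaf4 0.878. These values describe slides whose ratio turns with the orientation for any gene with a treatment ratio. Among the 5 slides with treated RNA in channel 1, Dcaf4 ran opposite to Abhd4 (r = −0.902) and to Ddias (−0.841), while Abhd4 and Ddias ran together (0.882). Among the 5 with treated RNA in channel 2 all pairs ran together, with r from 0.850 to 0.921. The points share slides and dyes, and 5 slides describe little.

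Of 4852 singly named probes of other genes, those whose pattern over these 10 slides was most like Ddias were Mcam, a cell adhesion molecule (r = 0.952), the matrix protease Mmp2 (0.949), Rbm38, an RNA-binding protein and p53 target (0.948), the tetraspanin Cd151 (0.938) and Aen, a p53-induced exonuclease (0.936). Most like Abhd4 were Ckap2 (0.951), Ccng1, the p53 target cyclin G1 (0.943), Bloc1s2, a lysosome positioning subunit (0.943), Ercc5, the excision repair nuclease (0.940), and the membrane protein Itm2b (0.939). Most like Dcaf4 were Rbm38 (0.964), Mfge8, a bridge to apoptotic cells (0.962), Arhgef17 (0.960), Mmp2 (0.949) and the receptor-like Ptk7 (0.939). Rbm38 and Mmp2 stood in the lists of both Ddias and Dcaf4. The slide ratios behind these r values turn with the orientation for any gene with a treatment ratio. Ddias, Abhd4 and Dcaf4 were chosen by that ratio, so the lists are a description. Shared regulation with the listed genes was not tested. Rbm38 had log2 ratios of 0.73, 0.40, 0.80, 0.58 and 0.55 in replicates 1 to 5, with replicate 2 lowest, and a dye part of 0.51 there. For the Abhd4 probe of array design 1 the nearest of 4748 probes were Tmem222, Cdc42ep5, Cpeb3, Cts8 and Usp42 (0.960 to 0.975), with mean log2 ratios from −0.13 to −0.08.

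The gene lists here and below were chosen with earlier results of these data known, so their shares beside all probes are a description. The pathway around p53 was read from 54 listed targets, which did not include Rbm38. On array design 2, 15 of them were measured by 18 probes, of which 9 rose (50%, beside 19.8% of all probes) and none fell with limma (none was lower at an unadjusted p under 0.05 or with the robust prior), with a median log2 ratio of 0.14 beside 0.02 over all probes. With the smooth trend of each replicate's ratios on the dye profile removed, 6 rose. Ccng1 (1.39 ± 0.40), Ckap2 (0.74 ± 0.11) and Gtse1, a spindle protein that holds p53 back (0.56 ± 0.20, SD, n = 5), had the smallest p-values. Ppm1d, the phosphatase that dampens p53 signalling, and Aen rose by 0.34 ± 0.09 and 0.32 ± 0.08 there. A set of 13 targets was measured by 17 probes on array design 1, of which 6 rose (35.3%, beside 0.638% of all probes) and none fell with limma (3 were lower at an unadjusted p under 0.05, and the robust prior called none lower), with a median of 0.24 beside 0.00491 over all probes. They included Ccng1 on 2 probes, Aen, Rps27l and Mdm2, with log2 ratios from 0.75 to 2.90. Without replicate 1 or without replicate 3, 3 probes rose on that design. Of the 50 probes called on that design 44 lacked a value in the incomplete readout of replicate 4, among them 5 of these 6. With that readout left out for all probes 8 of the 17 rose, and among the 10 with values on all arrays none rose with limma.

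Other genes of CUL4-DDB1 ligases were listed beside Dcaf4. This list held the cullins, DDB1, other substrate receptors and the COP9 signalosome, which removes Nedd8 from cullins. On array design 2, 15 probes of 11 genes had a median log2 ratio of −0.01, and 3 rose and 3 fell. None of these probes read a cullin or Ddb1. Cops4 and Cops6, subunits of the signalosome, rose by 0.20 ± 0.15 and 0.19 ± 0.10, and Dtl, the receptor that targets Cdt1, by 0.17 ± 0.13 (SD, n = 5). Dcaf7 fell with −0.19 ± 0.14 and Ambra1 with −0.17 ± 0.06. Another probe of Dtl (0.06, limma adjusted p = 0.492) and another of Dcaf7 (−0.09, limma adjusted p = 0.227) were not called. The share of probes that rose was 20%, beside 19.8% of all probes, and the share that fell was also 20%, beside 8.07% of all probes. With the dye-profile trend removed, none rose and 1 fell. Without replicate 1 none rose and 1 fell as well, and 1 fell without replicate 2 and without replicate 3. On array design 1, where 0.638% of all probes were called higher and 0.013% lower, none of 26 probes of 21 genes passed with limma. At an unadjusted p under 0.05, 4 were higher and 4 lower. The robust prior gave none as well. Ddb1 (0.37 and 0.20) and Cul4b (0.19) were read on this design and were not called. The smallest p there belonged to Dcaf6, at −0.21 ± 0.09 (SD, n = 5, limma adjusted p = 0.0516).

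None of the probes listed beside Abhd4 passed on either design. Of all probes, 19.8% were called higher and 8.07% lower on array design 2. On array design 1 these shares were only 0.638% and 0.013%. The list held 28 other α/β-hydrolases and enzymes of N-acylethanolamine metabolism. On array design 2, 9 probes read 8 of these genes, with log2 ratios from −0.12 to 0.13 and a median of −0.00474. At an unadjusted p under 0.05, 1 of them was higher and 1 lower, and the robust prior called none. Abhd12, a lysophosphatidylserine lipase, had the smallest p at 0.13 ± 0.11 (SD, n = 5, limma adjusted p = 0.07). On array design 1, 4 probes of 4 genes lay between −0.10 and 0.02, none of them under an unadjusted p of 0.05 and none called with the robust prior, and Naaa, the acid amidase of N-acylethanolamines, had the smallest p at −0.10 ± 0.10 (limma adjusted p = 0.244).

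Apoptosis inhibitors were listed beside Ddias. On array design 2, 2 of 6 probes (33.3%) rose, beside 19.8% of all probes, and none fell, with a median of 0.09. They were Dad1, a subunit of the oligosaccharyl transferase, at 0.22 ± 0.07 and Bag1, an Hsp70 co-chaperone, at 0.18 ± 0.20 (SD, n = 5). With the dye-profile trend removed none of the 6 rose and 1 fell, and without replicate 1 or without replicate 3 only 1 rose. None of 7 passed on array design 1 with limma or with the robust prior, beside 0.638% higher and 0.013% lower of all probes there. At an unadjusted p under 0.05, 2 were higher. Bag3 had the smallest p there, at 0.27 ± 0.13 (SD, n = 5, limma adjusted p = 0.0516), and another Bag3 probe had 0.01 (limma adjusted p = 0.914). Ddias carries a domain related to that of replication protein A, so this complex was listed with DNA polymerase α-primase. Of 3 probes on array design 2, 2 rose (66.7%, beside the same 19.8%), Prim1 by 0.36 ± 0.11 and Rpa2 by 0.30 ± 0.22, and with the trend removed 1 did. None of 4 probes passed on array design 1 with limma or the robust prior, where 1 was higher and 1 lower at an unadjusted p under 0.05 and Rpa1 had 0.25 ± 0.21 (SD, n = 5, limma adjusted p = 0.0739).

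**Figure D5:**
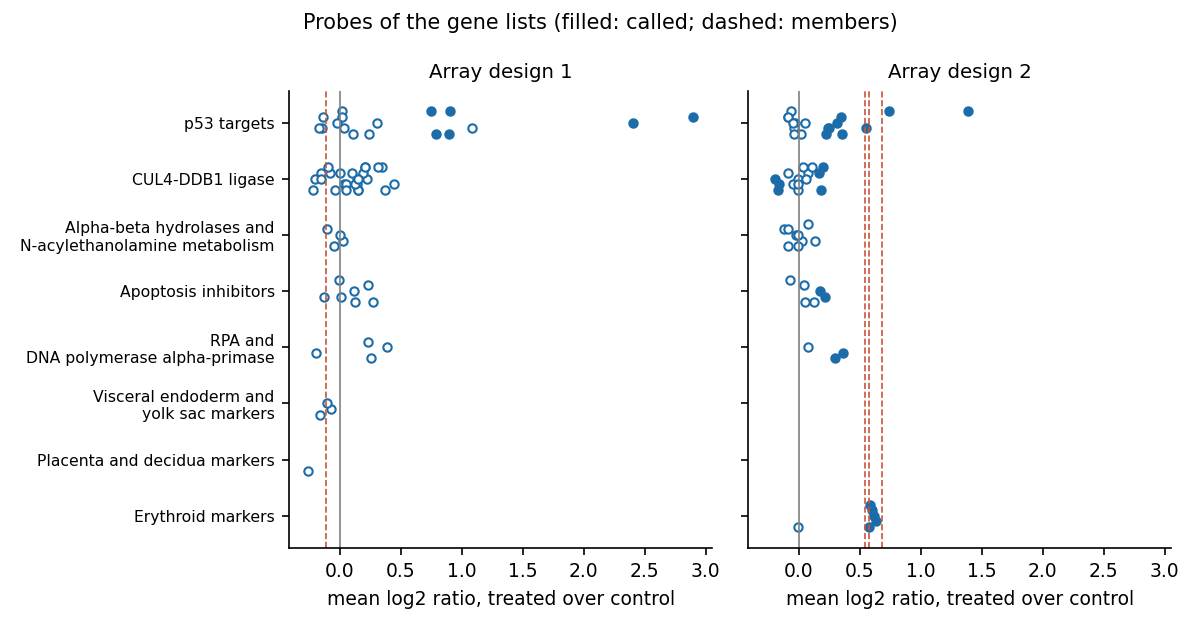
Mean log2 ratio of treated over control embryos for every probe of the gene lists, by array design, filled where called (limma adjusted p under 0.05), with dashed lines at the probes of Ddias, Abhd4 and Dcaf4. On array design 2 the dashed lines (0.54 to 0.68) lie above every probe of the ligase, hydrolase, apoptosis inhibitor and DNA polymerase lists. The lines of Abhd4 (0.578) and Dcaf4 (0.539) there lie below the globin probes (0.579 to 0.632) and above Alas2 (−0.00177). Ddias, Abhd4 and Dcaf4 were chosen by their treated over control ratios, so the height of these lines is a description.

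Among markers of red blood cells, probes of embryonic globins had higher ratios. Of 8 erythroid markers, 3 were measured on array design 2, by 6 probes with log2 ratios from −0.00177 to 0.63, and 5 probes of the embryonic globins Hbb-y (4 probes) and Hba-x (1 probe) rose (0.58 to 0.63), while Alas2, the first enzyme of haem synthesis in red cells, had −0.00177. The 5 probes, which read only 2 genes, are 83.3% of those measured, beside 19.8% of all probes. The number was 5 with each replicate left out and 4 with the dye-profile trend removed. In whole embryos a change in the number of a cell type and a change in RNA per cell cannot be told apart, and the part of red cells in the ratios of the 3 genes was not tested. Markers of visceral endoderm and yolk sac (3 probes, −0.17 to −0.07) and of placenta and decidua (Prl8a2 alone, −0.26 ± 0.12) were measured on array design 1. None of these passed with limma or the robust prior, beside 0.638% higher and 0.013% lower of all probes there. At an unadjusted p under 0.05, 1 endoderm probe and Prl8a2 were lower. Apob, an endoderm marker, had −0.17 ± 0.14 (SD, n = 5, limma adjusted p = 0.11). Ratios hold no levels, so the tissue itself could not be checked against its markers.

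The protein-coding genes beside each member on its chromosome were looked up as well. Of all probes on array design 2, 19.8% were called higher and 8.07% lower. On array design 1 the shares were 0.638% and 0.013%. Most neighbours were named after their values were seen, so these values are a description. A shared change of neighbouring genes was not tested. Dad1, next to Abhd4 on one side, rose by 0.22, and Oxa1l, a mitochondrial insertase and the second gene on the other side, rose by 0.16 (limma adjusted p = 0.0318). Rab30, a Golgi GTPase beside Ddias, fell by 0.18 on the log2 scale (limma adjusted p = 0.0173), and Prcp, a lysosomal peptidase on its other side, had 0.07 (limma adjusted p = 0.339). Pcf11, a transcription termination factor beyond Rab30, had 0.10 on array design 1 (limma adjusted p = 0.23). Of the nearest neighbours of Dcaf4, Dpf3, a chromatin remodelling subunit, had −0.13 on array design 1 (limma adjusted p = 0.112). Rbm25, a splicing factor and the second gene on the other side, had 0.13 to 0.18 on 3 probes of array design 1, none called, and rose by 0.17 on array design 2 (limma adjusted p = 0.0392).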

How the data were processed

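The authors deposited 1 log ratio per probe and array, taken here as log2 by assumption, and all columns were used; scanner, background correction, normalization, log base and numerator: not given in the sources used here. Probes were named through the platform annotation (on array designs 1 and 2, 4749 and 4935 spots had 1 symbol, 227 and 275 several, 2704 and 2470 none; 4712 and 4884 matched the GRCm38.p6 gene table, and no symbol changed). Arrays were centred on their median, spots of 1 accession averaged, readouts averaged, and the turned ratios of both orientations averaged to 1 value per replicate. Probes with at least 3 values were tested per design with limma 3.58.1 in R 4.3.3 (lmFit, eBayes, two-sided, Benjamini-Hochberg over all probes, threshold 0.05). The fit was tested on simulated data with independent normal errors and no missing values. Those data cannot show how slide effects or missing values act on the calls. The dye-profile trend was fitted with mgcv 1.9.3 on 3 principal components of the dye part (bases of 40 and 8). Members and lists were chosen with earlier results of these data known. The named genes are all member probes; up to 5 called probes per list by smallest p, else the one with the smallest p; the 5 probes most correlated with a member over the 10 slides; and probes ranked next to a member. Rab30, Prcp, Oxa1l, Dpf3, Pcf11, Rbm25, Alas2 and the replicate values of Rbm38 were added after their values were seen. Sequences are from RefSeq. The number of arrays limits the precision.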

Additional observations from a re-analysis of the deposited data

Results flagged for a closer look

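Replicate 2 stood apart from the other 4 in 5 of the 8 sets of replicate values of the 4 probes, by a gap to the nearest replicate above 0.71 of the whole range (Dixon's criterion, which chance meets in about 1 of 20 sets). Over all probes, 6.91% (treatment part) and 3.89% (dye part) had 1 replicate so far apart on array design 1, and 5.91% and 8.34% on array design 2. On array design 2 it was replicate 2 in 14.5% of such probes in the treatment part and in 65.5% in the dye part. On array design 1 it was replicate 2 in 3.77% and in 49.5%. Replicate 2 had different slides on the 2 designs, and the labels do not say that these share RNA. Replicate 2 had a treatment part of 0.15 for Ddias, with a mean of 0.82 in the others, and of 0.27 for Abhd4 on array design 2, with 0.65 in the others. Its dye part was 0.20 for Ddias (−0.46 in the others), 0.59 for Dcaf4 (−0.11 in the others) and 0.26 for Abhd4 on array design 1 (−0.09 in the others). Treatment and dye part of 1 probe come from the same arrays, so these sets are not independent.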

How the results depend on the processing

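Ddias, Abhd4 and Dcaf4 on array design 2 kept a ratio above 0 under every alternative run, except with channel 2 as the numerator (−0.68, −0.58 and −0.54). Without centring they had 0.25, 0.15 and 0.11, and Abhd4 on array design 1 had −0.35. With treated RNA in channel 1 only, Ddias and Abhd4 had 0.36 and 0.31, and in channel 2 only 1.01 and 0.84. Leaving out each replicate gave 0.62 to 0.82, 0.55 to 0.65 and 0.48 to 0.61, and with the dye-profile trend removed they had 0.66, 0.57 and 0.53. All these runs use the values that chose the genes, so their signs are a description. The dye part of Ddias ran from −0.46 to −0.28 over replicates left out.

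Of all probes, 50 were called on array design 1 and 2114 on array design 2 (1501 higher, 613 lower). Without centring 4615 (19 higher, 4596 lower) and 6655 (21 higher, 6634 lower) were called, with arrays scaled 345 and 1331 (1151 higher, 180 lower), with plain readouts 501 and 1076, with treated RNA in channel 1 only 2324 and 1190, and in channel 2 only 1108 and 117. On array design 1, B readouts gave 3, leaving out the readout with missing values 1224, probes with values on all arrays 0 of 6894 with limma (2018 at an unadjusted p under 0.05, 0 with a robust prior), a series term 12, and single arrays with a replicate block 890. Leaving out each replicate gave 7 (without replicate 3) to 82 (without replicate 4) on array design 1 and 1013 (without replicate 1) to 2637 (without replicate 5) on array design 2, where removal of the dye-profile trend gave 378. The causes were not tested. With that trend removed on array design 2, ligase probes went from 3 higher and 3 lower to 0 and 1, apoptosis inhibitors from 2 higher and 0 lower to 0 and 1, and DNA polymerase probes from 2 higher to 1. Leaving out each replicate, chosen for the lists after seeing the data, gave 3 to 7 higher p53 targets on array design 1 (6 with all) and, on array design 2, 7 to 9 higher p53 targets (9 with all), 0 to 3 higher and 1 to 3 lower ligase probes and 1 to 2 higher apoptosis inhibitors. Restricting p53 targets on array design 1 to values on all arrays, also chosen after seeing the data, gave 0 higher.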
